A study of Mus musculus with 3 samples.

Results

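The splicing factor genes described here are the 56 protein-coding mouse genes whose symbols begin with Srsf, Hnrnp, Sf3a, Sf3b, U2af or Prpf, followed by a letter or number. They were taken from the 22457 genes of the deposited count tables by matching gene identifiers to the GENCODE annotation of GRCm38, and all 56 such genes of that annotation were present. By family there were 11 Srsf, 20 Hnrnp, 3 Sf3a, 6 Sf3b, 3 U2af and 13 Prpf genes. Their levels were measured by polyA plus RNA-seq of regulatory T cells, the Foxp3-expressing CD4 T cells that restrain other immune cells. They were primary cells from 4-month-old adult mice, with a haematopoietic bone marrow origin according to the labels. No label gives a genotype, strain, treatment or number of animals, and sex was not collected. A single group of 3 libraries was made, all from biological replicate 1 and numbered as technical replicates, so that no condition could be compared and every spread or p-value below measures the difference between these libraries only.

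Removal of introns is carried out by the spliceosome, which assembles on each intron from small nuclear ribonucleoprotein particles (snRNPs) and accessory proteins. The U1 snRNP binds the start of the intron, U2AF and then the U2 snRNP with its SF3A and SF3B complexes bind near its end, and the U4/U6.U5 tri-snRNP, which holds several Prpf proteins, joins before catalysis. SR proteins (Srsf genes) and hnRNP proteins bind the transcript and raise or lower the use of single exons. In T cells, exon skipping in the transcript of the phosphatase CD45 on activation is the textbook case, with Hnrnpll as a known regulator.

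Libraries 1, 2 and 3 held 3206781, 3228215 and 2872350 counts in all, and 3 counts corresponded to 0.936, 0.929 and 1.04 CPM, which are counts scaled to a library total of 1000000. Levels are in CPM as mean ± SD (n = 3 throughout), and comparisons of level between genes use CPM per kilobase of coding sequence. Intervals and floors cover counting error only. All 12 regulatory T cell markers reached 1 CPM in every library, with summed levels of 5639, 5329 and 5490 CPM in libraries 1, 2 and 3, and so did all 10 T cell markers (5729, 5594 and 5732 CPM). Markers of other cells were unequal between libraries. The 8 B cell markers summed to 230.1, 310.4 and 431 CPM, the 5 plasma cell markers to 38.4, 449 and 112 CPM, the 8 erythroid markers to 8.11, 218 and 183 CPM, the 8 neutrophil markers to 1.56, 79.3 and 10.4 CPM, and the 6 monocyte and macrophage markers to 79.2, 85.2 and 104 CPM. In every library 1 CPM was reached by 8 of 8 B cell, 3 of 5 plasma cell, 1 of 8 erythroid, 0 of 8 neutrophil and 5 of 6 monocyte and macrophage markers. In library 1 the 4 globin genes, Slc4a1 and Klf1 of the erythroid list, S100a8, S100a9, Ltf, Lcn2 and Elane of the neutrophil list, and Sdc1 and Tnfrsf17 of the plasma cell list were at 0. Bulk RNA cannot tell fewer cells of a type from less RNA per cell.

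Several splicing genes have near-identical processed copies elsewhere in the genome. This bears on the values of such genes below, since the sources used here do not say how reads that match several genes were counted. For each gene the coding sequence was cut into all its stretches of 31 bases. The share that also occurs, in either orientation, in an annotated transcript of another gene was counted. Overlap with a gene on the opposite strand therefore counts as sharing too. The share was 85.2% for Hnrnpa1, with matches in 25 pseudogenes, 97.7% for Hnrnpa3, with matches in 46 pseudogenes, 93.3% for U2af1 and 63.0% for U2af2. It was 20.9% for Hnrnpa2b1, the hnRNP gene with the highest level per coding kilobase. The first 120 coding bases of these 5 genes (GENCODE M21 transcripts, GRCm38, written 5′ to 3′) are given because they show how little of Hnrnpa1 and U2af1 is unique. Capitals mark bases that lie in a 31-base stretch held by another gene's transcript.
Hnrnpa1: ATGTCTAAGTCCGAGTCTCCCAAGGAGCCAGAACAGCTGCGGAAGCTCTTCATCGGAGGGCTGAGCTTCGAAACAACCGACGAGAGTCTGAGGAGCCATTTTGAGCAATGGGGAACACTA
Hnrnpa3: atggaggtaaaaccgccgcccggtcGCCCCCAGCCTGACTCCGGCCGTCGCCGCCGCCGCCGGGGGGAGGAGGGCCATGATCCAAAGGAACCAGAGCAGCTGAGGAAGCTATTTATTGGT
Hnrnpa2b1: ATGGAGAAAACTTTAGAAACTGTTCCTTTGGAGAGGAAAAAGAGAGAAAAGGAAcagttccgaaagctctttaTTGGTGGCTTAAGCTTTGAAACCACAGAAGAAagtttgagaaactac
U2af1: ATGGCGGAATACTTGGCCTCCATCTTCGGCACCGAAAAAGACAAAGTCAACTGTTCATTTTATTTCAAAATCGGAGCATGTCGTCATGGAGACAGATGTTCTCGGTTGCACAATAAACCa
U2af2: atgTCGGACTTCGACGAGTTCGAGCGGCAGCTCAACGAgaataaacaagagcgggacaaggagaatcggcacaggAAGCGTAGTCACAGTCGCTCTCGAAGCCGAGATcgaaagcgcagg
In these stretches 120 bases were shared for Hnrnpa1, 95 for Hnrnpa3, 86 for Hnrnpa2b1, 119 for U2af1 and 68 for U2af2. Over the whole coding sequence such bases made up 96.3%, 97.8%, 60.9%, 99.9% and 89.0% in the same order.

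The splicing genes were detected almost without exception and at levels above those of most expressed genes. Of the 56 genes 54 reached 1 CPM in every library, the others being Hnrnpu and Hnrnpa0. Together they took 1.16% ± 0.0221 of all counts. Their median level was 107.6 CPM, beside 45.3 CPM over the 10642 protein-coding genes at 1 CPM or more in every library. These are the expressed genes referred to throughout, while the 56 splicing genes were not filtered in this way. Per coding kilobase the medians were 93.8 CPM for the splicing genes and 30.6 CPM for the expressed genes. Above this second value lay 42 of the 56 genes, 12 were in the top 10% of expressed genes, and 14 lay at or below it. By family the median per coding kilobase was highest for Sf3b (337 CPM), followed by Sf3a (123 CPM), Srsf (102.5 CPM), Prpf (98.9 CPM), Hnrnp (56.9 CPM) and U2af (23.2 CPM). Per kilobase of exon the order was Sf3b (49.5 CPM), Sf3a (47.5 CPM), Prpf (29.7 CPM), Hnrnp (11.6 CPM), Srsf (11.2 CPM) and U2af (8.88 CPM). The spread within a family exceeded that between most families, from 4.27 to 541 CPM per coding kilobase for Srsf and from 0 to 573 for Hnrnp.

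**Figure D1:**
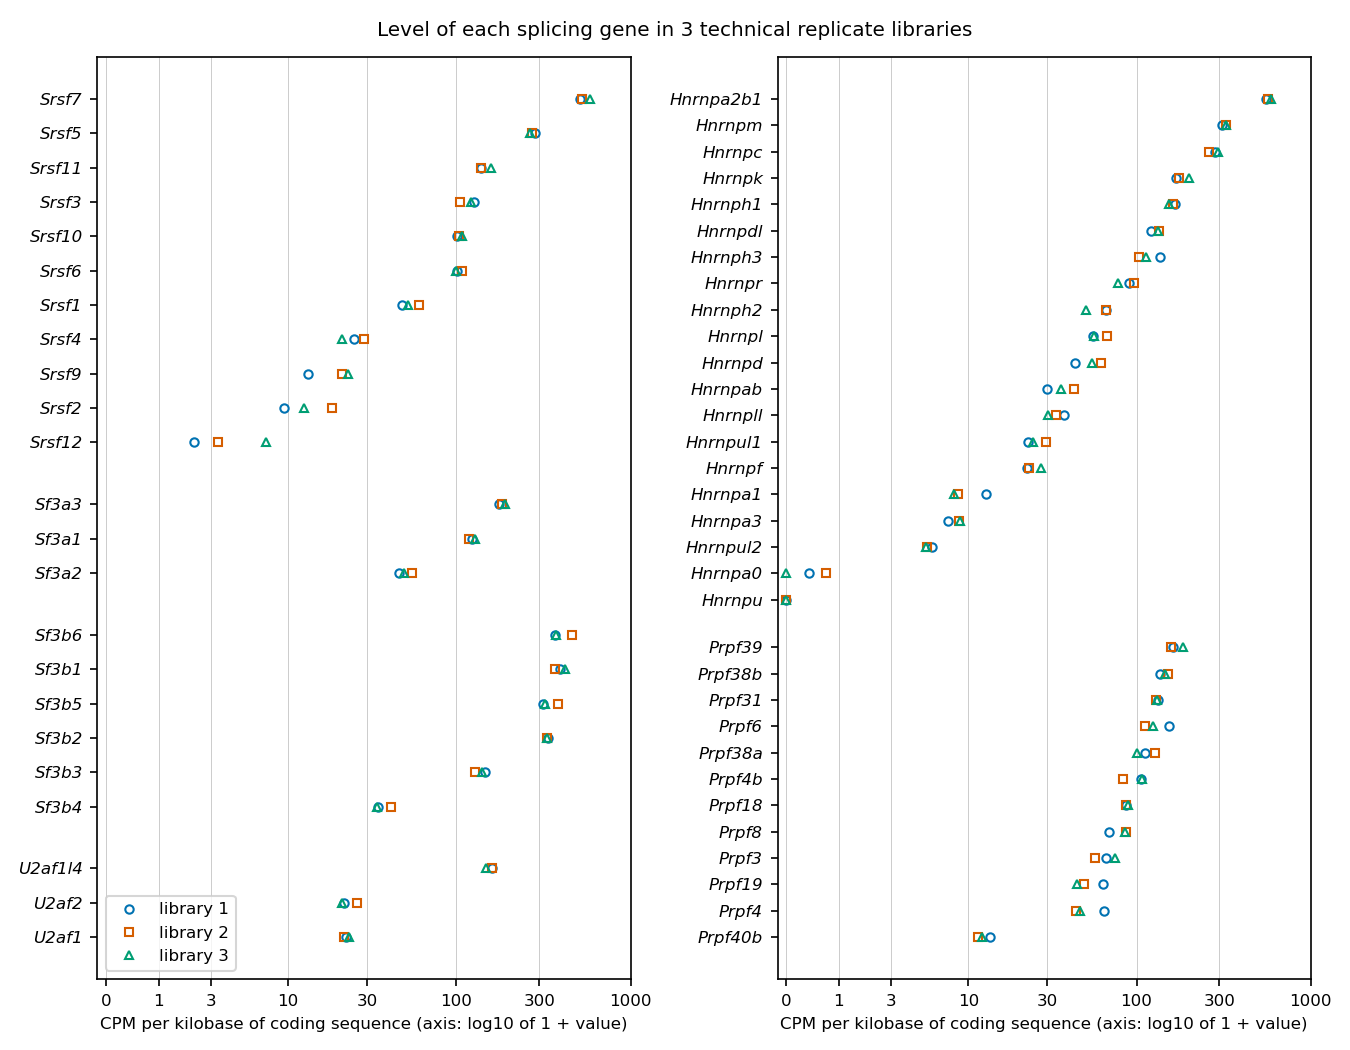
Level of 55 of the 56 splicing genes in CPM per kilobase of coding sequence, on an axis of log10 of 1 + value, 1 symbol per technical replicate library. Genes are ordered by mean level within each family; the 3 libraries lie close together for most genes, and Hnrnpu is at 0 in all of them.

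The SF3B complex, which holds the U2 snRNP on the branch site of the intron, had the highest family median per coding kilobase, and 5 of its 6 genes exceeded 100 CPM per coding kilobase. Sf3b1 encodes its largest subunit, a frequent target of mutation in blood disorders, and lies on chromosome 1 at 54985169 to 55027481, minus strand (ENSMUSG00000025982.9). Its level was 1542, 1443 and 1658 CPM in libraries 1, 2 and 3, the highest CPM among the 56 genes, or 394 ± 27.3 CPM per coding kilobase. Sf3b6, whose product contacts the branch point adenosine, is short and stood at 139, 172 and 141 CPM, which came to 402 ± 49.6 CPM per coding kilobase. Its library 2 value lay above the others. Sf3b5, the smallest subunit, had 81.7, 99.4 and 82.9 CPM (341 ± 38.5 CPM per coding kilobase). Sf3b2, which sits beside the branch site, had 885, 878 and 872 CPM (333 ± 2.57 CPM per coding kilobase). On this scale the mean levels of Sf3b5 and Sf3b2 differed by less than the SD of Sf3b5. Per kilobase of exon they were far apart, at 22.9 CPM for Sf3b5 and 129 CPM for Sf3b2. Sf3b3 followed at 137.9 ± 9.42 CPM per coding kilobase. Sf3b4, an RNA-binding subunit, was lowest at 44.3, 53.3 and 43.9 CPM, or 37.1 ± 4.18 CPM per coding kilobase, and 83.2% of its coding 31-base stretches occur in another gene.

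The SF3A complex joins SF3B on the U2 snRNP. Sf3a3 had 264, 273.5 and 286 CPM, which is 183 ± 7.14 CPM per coding kilobase. Sf3a1 had 293, 279 and 303 CPM, or 123 ± 4.91 CPM per coding kilobase. Sf3a2 had 68.6, 81.8 and 72.8 CPM, or 50.5 ± 4.57 CPM per coding kilobase, below both other genes in every library.

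The U2AF genes, whose products recognise the end of the intron before the U2 snRNP arrives, had the lowest family median. U2af2, the large subunit that binds the polypyrimidine tract (chromosome 7, 5062143 to 5079938, plus strand), stood at 34.6, 41.2 and 33.8 CPM, or 23.2 ± 2.59 CPM per coding kilobase. U2af1, the small subunit that contacts the terminal AG (chromosome 17, 31647081 to 31658892, minus strand), stood at 17.8, 17.3 and 18.5 CPM, or 22.7 ± 0.708 CPM per coding kilobase. Both are genes whose coding stretches, printed above, are largely shared with copies. U2af1l4, which encodes a related small subunit (U2AF26), was listed at 112, 111.8 and 102.7 CPM, or 157 ± 7.64 CPM per coding kilobase. All of the U2af1l4 coding sequence lies within exons of Gm49396 on the same strand, so that counts of these genes cannot be told apart, and 13.3% of it overlaps exons on the opposite strand.

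The Prpf genes spanned the U1-associated proteins, the tri-snRNP and the activated spliceosome. Prpf39, a protein associated with the U1 snRNP, had 344, 333 and 389.6 CPM (168 ± 14.2 CPM per coding kilobase). Prpf38b had 225, 248 and 238 CPM (144.7 ± 7.03 CPM per coding kilobase). By mean level per coding kilobase Prpf39 and Prpf38b lay above every tri-snRNP member of the family. Per kilobase of exon Prpf39 (29.7 CPM) and Prpf38b (34.1) lay below Prpf6 (95.3), Prpf8 (75.7) and Prpf31 (36.3). They lay above Prpf3 (24.3) and Prpf4 (14.3) on that scale as well. Prpf8, the scaffold of the U5 snRNP at the catalytic centre (chromosome 11, 75486816 to 75509449, plus strand), had 483, 612 and 598 CPM, of which the library 1 value was the lowest, and its long coding sequence of 7005 bases brought this to 80.6 ± 10.1 CPM per coding kilobase. Among the genes of the U4/U6 side, Prpf31 stood at 131 ± 1.27, Prpf3 at 66.2 ± 8.99 and Prpf4 at 51.9 ± 11.1 CPM per coding kilobase, and Prpf6, which links U5 with U4/U6, at 130.3 ± 21.5. Prpf38a stood at 113.6 ± 13.3 and the kinase gene Prpf4b at 98.9 ± 13.8 CPM per coding kilobase. Prpf18, a factor of the second catalytic step, stood at 87.7 ± 1.06 CPM per coding kilobase and Prpf19, a ubiquitin ligase that acts in spliceosome activation, at 52.7 ± 9.74. Prpf40b was lowest at 35.9, 30.4 and 32.0 CPM, or 12.5 ± 1.08 CPM per coding kilobase.

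Among the SR protein genes Srsf7 stood apart. It lies on chromosome 17 at 80200080 to 80207307, minus strand (ENSMUSG00000024097.10), and had 377, 389.7 and 433 CPM, or 541 ± 40.1 CPM per coding kilobase. Srsf5 had 234, 224 and 218 CPM (274 ± 9.96 CPM per coding kilobase). Srsf11 had 225, 224 and 257 CPM (144.8 ± 11.4 CPM per coding kilobase). The next genes were Srsf3 (65.8, 54.5 and 63.4 CPM, 117 ± 11.3 CPM per coding kilobase), Srsf10 (103 ± 3.60), a splicing repressor when dephosphorylated, and Srsf6 (102.5 ± 4.39), and these 3 overlapped between libraries. Per kilobase of exon they stood at 7.75, 12.5 and 24.9 CPM. On that scale Srsf3 lay below Srsf4 (11.2) and Srsf9 (9.62) as well, and close to Srsf1 (7.80). Of the Srsf3 and Srsf10 coding stretches 93.9% and 84.8% occur in other genes. The prototype SR protein gene Srsf1 had 39.9, 50.2 and 43.5 CPM, or 53.6 ± 6.27 CPM per coding kilobase. Srsf4 stood at 25.1 ± 3.71 and Srsf9 at 19.3 ± 5.32 CPM per coding kilobase. Of the Srsf4 coding sequence 60.8% overlaps exons of Gm12992 on the opposite strand. Srsf2 (SC35) had 20, 40 and 24 counts, which is 6.24, 12.4 and 8.36 CPM or 13.6 ± 4.72 CPM per coding kilobase. Its coding sequence has a GC content of 68.5% and 43.4% of it overlaps exons of Mfsd11 on the opposite strand. Srsf12 was lowest with 7, 11 and 21 counts, or 4.27 ± 2.66 CPM per coding kilobase.

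The hnRNP genes had the widest range. Hnrnpa2b1, which encodes the hnRNP A2 and B1 proteins, lies on chromosome 6 at 51460932 to 51469894, minus strand (ENSMUSG00000004980.12). It had 589, 602.5 and 629 CPM, or 573 ± 19.1 CPM per coding kilobase, the highest value among the 56 genes. Hnrnpa2b1 and Srsf7 also had the most counts per coding base, on average 1.78 and 1.67 per library, and 95 of the 10642 expressed genes had 1.6 or more. Hnrnpm had 752, 792 and 791 CPM (321 ± 9.46 CPM per coding kilobase). Hnrnpc, a binder of uridine tracts, had 267, 246 and 278 CPM (281 ± 17.2 CPM per coding kilobase).

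Genes of the middle range included Hnrnpk, a binder of cytidine tracts (182 ± 16.5 CPM per coding kilobase), Hnrnpdl (130.1 ± 7.12) and Hnrnpr (88.7 ± 9.69). The genes for the G-tract binding hnRNP F and H proteins covered a range from Hnrnph1 (161 ± 6.14) over Hnrnph3 (117 ± 16.9) and Hnrnph2 (61.3 ± 9.19) to Hnrnpf (24.6 ± 2.67 CPM per coding kilobase). Hnrnpl, which binds CA repeats, had 108, 130.1 and 109 CPM, or 60.1 ± 6.46 CPM per coding kilobase. Hnrnpll, the regulator of CD45 splicing (chromosome 17, 80029487 to 80062334, minus strand), had 68.9, 62.0 and 55.01 CPM, or 34.1 ± 3.83 CPM per coding kilobase, and was below Hnrnpl in every library. Hnrnpd (AUF1), also known for its part in mRNA decay, stood at 53.7 ± 9.11 CPM per coding kilobase, Hnrnpab at 36.5 ± 6.55 and Hnrnpul1 at 25.9 ± 3.22.

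At the low end were A-type hnRNP genes, Hnrnpul2 and Hnrnpu. Hnrnpa1, a repressor of exon inclusion (chromosome 15, 103240432 to 103246692, plus strand), had 46, 31 and 26 counts, which is 14.3, 9.60 and 9.05 CPM or 9.83 ± 2.60 CPM per coding kilobase. Hnrnpa3 had 27, 32 and 29 counts (8.33 ± 0.809 CPM per coding kilobase). Most of both coding sequences is shared with pseudogenes, as printed above, so their own transcripts and those counted elsewhere cannot be told apart. Hnrnpul2 had 42, 39 and 34 counts (5.52 ± 0.299 CPM per coding kilobase). Hnrnpa0, a single-exon gene with a coding GC content of 71.9%, had 1, 2 and 0 counts. Hnrnpu, which encodes a nuclear matrix and chromatin binding hnRNP (SAF-A), was listed with 0 counts in all 3 libraries (chromosome 1, 178321108 to 178337797, minus strand, ENSMUSG00000039630.9). For scale, 3 counts are 0.936, 0.929 and 1.04 CPM in libraries 1, 2 and 3, which is no firm upper limit for Hnrnpu. None of its coding 31-base stretches occurs in another annotated gene and no exon of another gene overlaps its coding sequence in GENCODE M21. The counts were made with an earlier annotation release, and whether its gene model there bears on the 0 was not tested.

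Levels of genes that act together or replace each other were set side by side within each library, as log2 ratios of counts per coding base. With 3 libraries a sign test cannot go below p = 0.25 (exact, 2-sided), so these ratios are descriptions. U2af2 and U2af1, the subunits of the U2AF dimer, had log2 ratios of -0.04, 0.25 and -0.13, with a mean of 0.03 ± 0.20, and on this scale neither was higher in all libraries. The mean was 0.36 per kilobase of exon and 1.03 without division by length, so that the size of this ratio depends on the length used. The small subunit genes differed, with U2af1 below U2af1l4 by a log2 ratio of -2.79 ± 0.11 in which Gm49396, the gene that overlaps U2af1l4, may also count. Sf3a1 to Sf3a3 gave -0.57 ± 0.06, and without division by length the sign turned (0.09). Sf3b1 to Sf3b2 gave 0.24 ± 0.11, a small excess of Sf3b1 in every library.

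Pairs of related RNA-binding proteins were unequal in every library. Hnrnpl exceeded Hnrnpll by 0.57, 0.99 and 0.90 on the log2 scale (mean 0.82 ± 0.22). The SR protein gene Srsf3 was below Srsf7 by a log2 ratio of -2.21 ± 0.17, with 93.9% and 12.4% of their stretches shared. Hnrnpa2b1 exceeded Hnrnpa1 by 5.44, 6.05 and 6.20 (mean 5.90 ± 0.40), the widest of the 7 ratios shown, with 85.2% of the Hnrnpa1 stretches and 20.9% of those of Hnrnpa2b1 shared. Per kilobase of exon, which includes the UTRs, the means were 1.87 for Hnrnpl to Hnrnpll, -3.86 for Srsf3 to Srsf7 and 4.75 for Hnrnpa2b1 to Hnrnpa1, with the same signs.

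**Figure D2:**
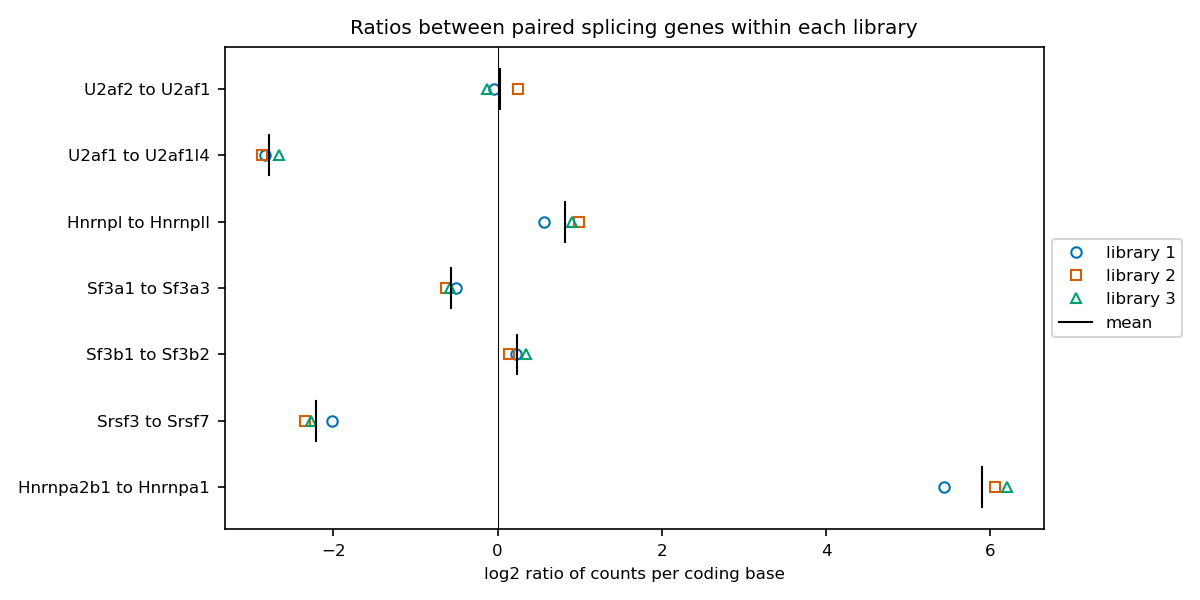
Log2 ratio of counts per coding base for 7 pairs of splicing genes, 1 symbol per library and a bar at the mean. The ratio of U2af2 to U2af1 straddles 0, and that of Hnrnpa2b1 to Hnrnpa1 lies between 5.44 and 6.20.

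Level was related to coding GC content among the splicing genes. The 15 genes with a coding GC content under 48% had a median of 161 CPM per coding kilobase, the 27 genes from 48% to 55% a median of 117, and the 14 genes at 55% or more a median of 25.5. Over all expressed genes the same classes had medians of 39.7, 34.4 and 21.3 CPM per coding kilobase. Across the 56 genes Spearman's rho was -0.47 and Pearson's r, on log2 of the level + 1, was -0.50. Across 10633 expressed genes rho was -0.15. Genes are not independent replicates and share the same 3 libraries, so no p-value is given. Exceptions in the high GC class were Sf3b5 (61.6% GC, 341 CPM per coding kilobase) and Sf3b2 (55.5% GC, 333). At the low end of GC content stood Prpf39 with 38.3%. Whether the preparation of the libraries has a part in this relation was not tested.

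Sharing with other genes was less closely related to level. At least 50% of the coding stretches were shared for 14 genes, with a median level of 49.2 CPM per coding kilobase and a range from 8.33 (Hnrnpa3) to 281 (Hnrnpc). The other 42 genes had a median of 101 CPM per coding kilobase, and the 18 genes with no shared stretch had a median of 120.2. Spearman's rho between level and shared percentage was -0.12 over the 56 genes, which is weak. Within the 42 genes below 50% the rho between level and GC content was -0.52. The shared percentage also exceeded 50% for Hnrnpf (97.7%), Srsf3 (93.9%), Hnrnpk (85.5%), Srsf10 (84.8%), Hnrnph2 (71.0%), Srsf5 (68.7%), Srsf4 (58.5%) and Hnrnpc (58.4%). For Srsf4 the shared stretches were those of Gm12992, which overlaps it on the opposite strand. Coding length was not related to the level per kilobase (rho 0.01).

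**Figure D3:**
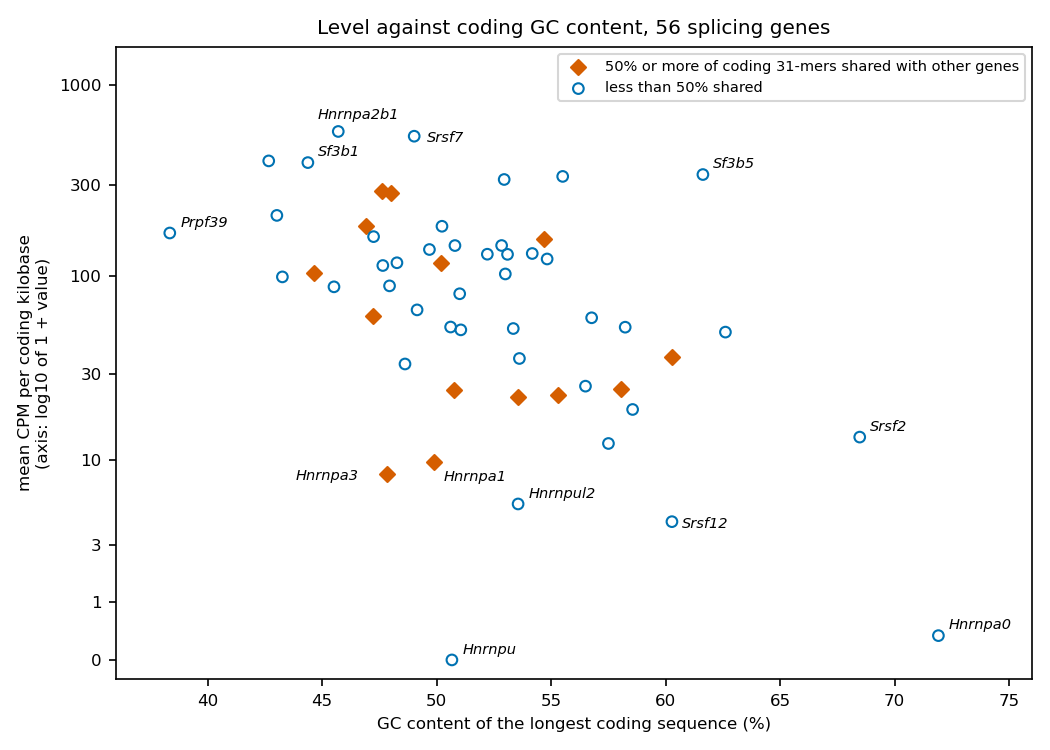
Mean level in CPM per coding kilobase (log10 axis of 1 + value) against GC content of the longest coding sequence for the 56 splicing genes. Filled diamonds mark the 14 genes with 50% or more of their 31-base coding stretches in transcripts of other genes; genes of 55% GC or more have a median of 25.5.

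The 3 libraries were then compared gene by gene, to find which splicing genes differed by more than counting error. Each gene's counts were tested with a chi-square test against Poisson expectation, with library sizes scaled by TMM and Benjamini-Hochberg adjustment over 10282 genes at 0.05. Of 54 splicing genes tested 20 were called (37.04%), while 27.6% of all genes tested were called. The highest value lay in library 1 for 6 of these genes, and calls of that direction made up 11.1% of all genes tested. It lay in library 2 for 4 genes (8.71% of all) and in library 3 for 10 (7.75% of all). Without library 1 the test called 14 splicing genes (25.9%, beside 16.5% of all genes), without library 2 it called 11 (20.4% beside 9.38%) and without library 3 it called 12 (22.6% beside 19.5%). Under a negative binomial model with the common spread of all genes it called 0, beside 0.914% of all genes. That spread was estimated from these same 3 libraries and so includes the differences tested, which leaves few genes to be called. The 0 is therefore no sign that the libraries were alike. By unadjusted p under 0.05 the chi-square test took 25 of the 54 splicing genes and 3971 of the 10282 genes. By family the calls were 8 of 13 Prpf, 6 of 18 Hnrnp, 3 of 6 Sf3b and 3 of 11 Srsf genes, and none of the 3 Sf3a and 3 U2af genes. Whether the unequal B cell, plasma cell, erythroid and neutrophil markers have a part in these differences was not tested.

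The differences were small, with a median ratio of highest to lowest library of 1.19 over the splicing genes and 1.254 over all genes tested. The highest and lowest library were picked from the same counts, so these ratios lean upward. An interval that lies above 1 is therefore not a call. Prpf6, the bridge of the tri-snRNP, had the smallest adjusted p among the 20 genes. It had 436, 318 and 349.9 CPM, and after scaling library 1 exceeded library 2 by 1.41-fold (95% exact interval 1.30 to 1.52, adjusted p = 1.32e-14 by the chi-square test). Prpf4, its U4/U6 partner, had 101, 69.1 and 73.1 CPM, and library 1 was 1.501-fold the value of library 2 (1.26 to 1.79, adjusted p = 4.20e-05). Prpf19 had 99.8, 78.1 and 70.3 CPM and a ratio of 1.42 between libraries 1 and 3 (1.19 to 1.71). These 3 genes were highest in library 1, and lowest in library 2 for Prpf6 and Prpf4 and in library 3 for Prpf19.

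Further genes were lowest in library 2, as Prpf6 and Prpf4 were. Prpf4b had 342, 267 and 344.7 CPM, with library 3 at 1.32-fold the value of library 2 (1.21 to 1.45, adjusted p = 3.02e-09 by the chi-square test). Prpf3 had 137.8, 119 and 156 CPM (ratio 1.34, 1.17 to 1.55), and Hnrnph3 had 141, 107 and 117 CPM, with library 1 highest (ratio 1.35, 1.17 to 1.56). Sf3b1, with the most counts, was called at a ratio of only 1.18 between libraries 3 and 2 (1.13 to 1.22, adjusted p = 3.12e-12 by the same test).

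Prpf8 went another way, with library 1 lowest and library 3 at 1.23-fold its value (1.15 to 1.32, adjusted p = 1.63e-09 by the chi-square test). Hnrnpd also had its lowest value in library 1 (46.8, 66.0 and 58.8 CPM, ratio 1.37 of library 2 to 1, interval 1.11 to 1.71). Hnrnph2 had 89.5, 89.8 and 68.2 CPM, low in library 3 (ratio 1.32, 1.09 to 1.59). The largest ratio, 3.34, was that of Srsf12, between 7 and 21 counts (1.37 to 9.30), so its size is poorly known. Among the other called genes were Hnrnpr (1.22), Sf3b6 (1.21), Prpf39 (1.20), Hnrnpk (1.18), Sf3b3 (1.17), Srsf11 (1.17), Hnrnpc (1.16) and Srsf7 (1.15), with the ratio of highest to lowest library in brackets. The 34 tested genes that were not called included Srsf2, whose ratio of 1.94 rested on 20 to 40 counts (interval 1.11 to 3.50), and Hnrnpll (1.26, 1.02 to 1.55), and differences of that size were not resolved at these counts.

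**Figure D4:**
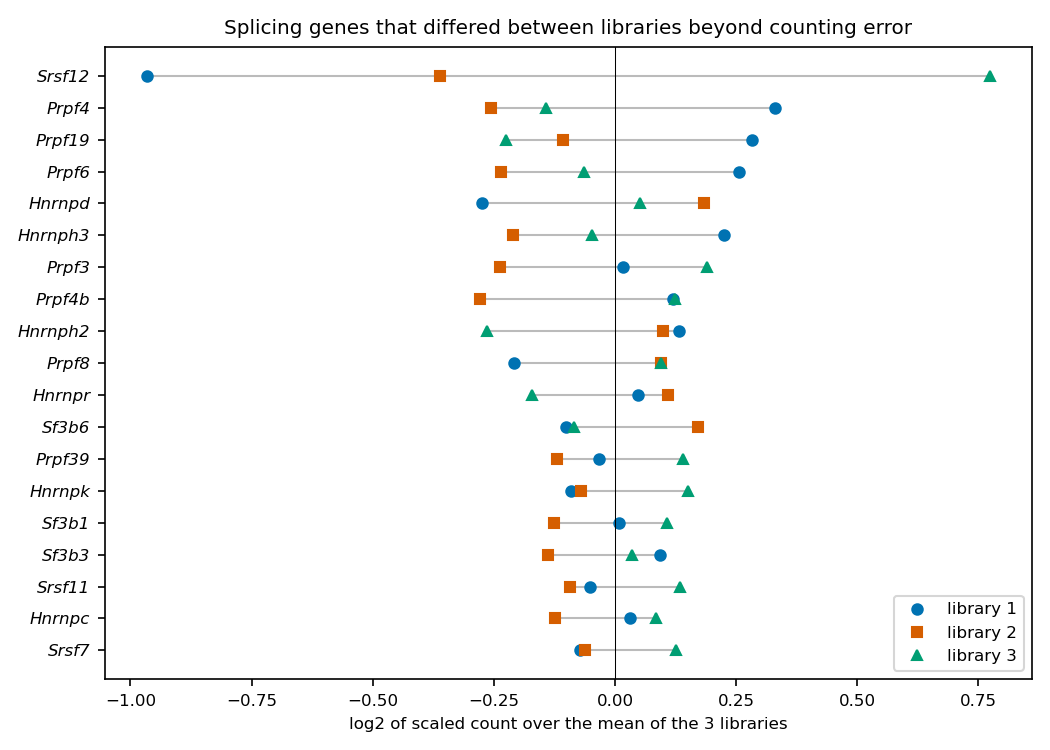
Of the 20 splicing genes called by the chi-square test 19 are shown, each library's TMM-scaled count over the mean of the 3 libraries on a log2 axis. Prpf4, Prpf19 and Prpf6 are highest in library 1, Prpf4b and Prpf3 lowest in library 2, and Srsf12, with 7 to 21 counts, spreads most.

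The rest of the splicing machinery was read from 6 lists with 124 genes, all matched, of which 110 reached 1 CPM in every library. Their median level was 90.7 CPM per coding kilobase, beside 93.8 for the 56 genes. Between the libraries 41 of 110 tested genes were called by the chi-square test (37.3%, beside 27.6% of all genes), with the highest value in libraries 1, 2 and 3 for 19, 7 and 15 of them. Without library 1 the count was 21 (19.3%, beside 16.5% of all genes), without library 2 it was 12 (10.9% beside 9.38%) and without library 3 it was 35 (31.8% beside 19.5%).

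For the U1 snRNP and the Sm ring, 2 of 13 tested genes were called. The share over all genes tested, 27.6%, stands beside each list's calls in this and the next paragraph. The lists are small and differ in their counts, on which calls depend, so their calls were not compared with each other. The Sm genes Snrpd3 (424 ± 9.97) and Snrpb (403 ± 30.9 CPM per coding kilobase) were highest, and Snrpn, a paralog of Snrpb known from the brain, had 0, 2 and 0 counts. For the U2 snRNP and branch site factors 7 of 16 were called, with Rbm39 at 394 ± 18.7 and the helicase gene Ddx39b at 366 ± 15.9 CPM per coding kilobase. Zrsr2, the small U2AF-related factor of the minor spliceosome, was lowest at 26.2 ± 1.28, close to U2af1 and U2af2. In the tri-snRNP list, which complements the Prpf genes, 4 of 19 were called, and levels ran from Txnl4a (234 ± 22.7) and Lsm6 (211 ± 26.7) to the cyclophilin gene Ppih (6.50 ± 0.930 CPM per coding kilobase).

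For catalytic activation and the steps of splicing 8 of 22 were called, beside 27.6% of all genes tested. Levels ran from Syf2 (313 ± 16.6) and Snw1 (308 ± 11.7) to the helicase gene Dhx16 (14.3 ± 1.51 CPM per coding kilobase). The kinases and partners of SR proteins had 7 of 14 called. Clk1, a kinase that phosphorylates SR proteins, led at 449 ± 14.5, ahead of Clk4 (204 ± 6.78), and Srpk3 was lowest at 4.97 ± 2.10 CPM per coding kilobase. Among other regulators of splicing 13 of 26 tested genes were called. Mbnl1, a muscleblind protein gene, stood at 454 ± 54.0 and Matr3 at 244 ± 8.67 CPM per coding kilobase, the second below Srsf5 and Hnrnpc. In this list of 39 genes 6 had no count in any library, Elavl3, Rbfox2, Rbfox3, Nova1, Nova2 and Khdrbs3, most of them known as splicing regulators of neurons.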

How the data were processed

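PolyA plus RNA-seq counts of 3 technical replicate libraries of regulatory T cells were used. The deposited files hold raw counts per gene, made by the authors with GENCODE M4 on mm10, per the file descriptions. Not given in the sources used here are the aligner, the counter, the strand setting and duplicate removal, so overlapping and antisense genes cannot be separated. The 56 genes and the gene lists were chosen with earlier results of these data known. Symbols, positions, coding lengths and coding sequences came from GENCODE M21 (GRCm38). Of 22457 identifiers 22195 matched and 262 did not (0.117% of counts). Levels are counts scaled to a total of 1000000 (CPM; totals 3206781, 3228215 and 2872350), and per coding kilobase divided by the union of coding exons. Counts were tested per gene against Poisson expectation (Pearson chi-square, 2 degrees of freedom) with R 4.3.3 and edgeR 4.0.16 for TMM factors (0.990, 1.02 and 0.993), a mean count of at least 10 and Benjamini-Hochberg adjustment; the test was tried on simulated data. Ratios of the highest to the lowest library carry 95% exact binomial intervals. These intervals do not allow for the choice of the libraries by their values, so their true coverage is below 95%.

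The genes were named with their level, except 1 gene that is not reported here; values per library were given for the 3 highest and the lowest of each family, the paired genes, Sf3b1, Prpf8, Srsf1, Srsf2, and the 8 called genes with the largest ratio and a mean count of at least 100. Of each list the 2 highest and the lowest were named; other values per library, Hnrnpa0, Hnrnpa3, Hnrnpul2 and Srsf12 among them, and the neuronal regulators were added after their values were seen. The alternatives tried were plain totals, size factors of DESeq2 1.42.0, other filters, a threshold of 0.01, a negative binomial model, exon length and leaving out each library; a limit of 0.5 counts per coding base, GC content and shared stretches were added after the data were seen. Protein sequences were not analysed here. Calculations and plots were made in Python 3.11.15 with pandas 2.3.3, scipy 1.17.1, matplotlib 3.10.9 and numpy 2.4.6.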

Additional observations from a re-analysis of the deposited data

How the results depend on the processing

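The count of splicing genes that differed between libraries was 20 with DESeq2 size factors (37.0%, beside 27.6% of all genes). With plain totals it was also 20 (37.0% beside 27.9%), and without a count filter it was 18 (32.7% beside 17.7%). A mean count of at least 50 gave 19 (39.6% beside 33.2%). The count was 13 at a threshold of 0.01 (24.1% beside 16.5%) and 13 among genes of at most 0.5 counts per coding base (32.5% beside 25.6%). Under the negative binomial model, whose spread came from these same libraries, it was 0 (beside 0.914%). When a library was left out it was between 11 and 14 (20.4% to 25.9%, beside 9.38% to 19.5%). For the listed pathway genes the count of 41 became 27 at a threshold of 0.01 (24.5% beside 16.5%). It was 26 under the same limit of 0.5 counts per coding base (33.3% beside 25.6%) and 0 under the negative binomial model (beside 0.914%). Without 1 library it was 12 to 35 (10.9% to 31.8%, beside 9.38% to 19.5%). With plain totals Hnrnpc was no longer called (log2 ratio 0.18, adjusted p = 0.122 by the chi-square test) and the other 19 called genes kept their call. At a threshold of 5 CPM 53 genes passed in place of 54. The median level per coding kilobase was 101 CPM for genes with a mean count of at least 10, 91.5 to 94.4 CPM without 1 library, and 22.4 CPM per kilobase of exon, which includes the UTRs. Per kilobase of exon, where Srsf came after Prpf and Hnrnp, the family medians were 11.2 CPM for Srsf, 11.6 for Hnrnp, 47.5 for Sf3a, 49.5 for Sf3b, 8.88 for U2af and 29.7 for Prpf; that of Srsf per coding kilobase was 100.01 to 103.7 CPM without 1 library. The log2 ratio of U2af2 to U2af1 lay between -0.0823 (without library 2) and 0.106 (without library 3), and that of Sf3a1 to Sf3a3 was 0.0876 when counts were not divided by length; no other ratio shown changed sign. Per kilobase of exon the ratio was 0.36 for U2af2 to U2af1, -3.26 for U2af1 to U2af1l4, 1.87 for Hnrnpl to Hnrnpll, -1.05 for Sf3a1 to Sf3a3, 0.08 for Sf3b1 to Sf3b2, -3.86 for Srsf3 to Srsf7 and 4.75 for Hnrnpa2b1 to Hnrnpa1. Without division by length U2af2 to U2af1 was 1.03, U2af1 to U2af1l4 -2.61, Sf3b1 to Sf3b2 0.81 and Srsf3 to Srsf7 -2.71. No paired analysis was possible because the labels give 1 group. Depth limits the genes with a mean count under 50, of which Srsf2 was not called at a ratio of 1.94.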
